A study of Homo sapiens with 8 samples.

Results

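Binding of HIF-1β, also called ARNT, was examined at 7 genes grouped here as target genes of the aryl hydrocarbon receptor (AHR). They were the receptor gene AHR itself, AHRR, TIPARP, CYP1A1, CYP1A2, CYP1B1 and NQO1. The genes were chosen by name, with earlier results of these data known. A peak was assigned to a gene when it overlapped the gene body, as annotated on GRCh37, extended by 25 kb on each side. All 7 of the named genes were found among 20163 annotated protein-coding genes. Of these 7, CYP1B1 had a peak in each of the 8 libraries, AHRR, CYP1A1, CYP1A2 and TIPARP had peaks in some, AHR had a peak in 1 library only, and NQO1 had none.

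HIF-1β is a shared partner of several bHLH-PAS transcription factors. It pairs with HIF-1α or HIF-2α when oxygen is low, and those dimers bind DNA at RCGTG, where R is A or G. It also pairs with ligand-bound AHR, and that dimer binds the xenobiotic response element, whose core is GCGTG, the same letters as the G form of the HIF core. CYP1A1, CYP1A2 and CYP1B1 are the classical AHR targets and encode enzymes that oxidise aromatic compounds and oestrogens, while AHRR and TIPARP encode proteins that restrain AHR.

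The ChIP-seq libraries came from PC-3 cells, a prostate cancer line, T47D cells, a breast cancer line, A549 cells, a lung cancer line, and HCT-116 cells, a colorectal cancer line. All were kept at 0.5% oxygen for 16 h and were precipitated with an antibody to HIF-1β, and there were 2 replicates of each line. No AHR ligand is named in the labels, no library from cells in normal oxygen was analysed here, and the labels do not say that the replicates came from separate cultures, so the spread between them may be technical. Because the antibody recognises the shared partner, HIF dimers and AHR dimers cannot be told apart in these libraries. Each list held between 1042 and 3790 peaks, and each peak had an interval and a score that began close to 50 in every list. PC-3 replicate 1 had 1042 peaks and PC-3 replicate 2 had 2891, and HCT-116 replicates 2 and 3 had 3790 and 1913. Peak lists hold no expression values, so the identity of the cell lines could not be checked against marker genes. A region with overlapping peaks of both replicates of a line was called a site, which gave 970 sites in PC-3, 2062 in T47D, 1041 in A549 and 1756 in HCT-116. To compare libraries, the score of a peak was expressed as the percentage of peaks of the same library that scored higher, so that a low percentage is a high rank.

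The DNA under the sites is shown first, because the letters differ from gene to gene. Each line below is the stretch of 200 bp with the most matches to TNGCGTG, a longer form of the AHR core in which N is any base, and among equals with the most matches to ACGTG and GCGTG together, within the part of the site that both replicates (for the CYP1B1 promoter, all 8 libraries) covered. The strand is that of the gene, read 5′ to 3′, from GRCh37, and annotated UTRs were avoided. Capitals mark ACGTG and GCGTG or their reverse complements CACGT and CACGC, which are the forms of the HIF core. The shared parts of the TIPARP site and of the first AHRR site in intron 4 hold no TNGCGTG, so their windows were set by the shorter motifs. A match describes the letters and not a bound site.
CYP1B1 promoter: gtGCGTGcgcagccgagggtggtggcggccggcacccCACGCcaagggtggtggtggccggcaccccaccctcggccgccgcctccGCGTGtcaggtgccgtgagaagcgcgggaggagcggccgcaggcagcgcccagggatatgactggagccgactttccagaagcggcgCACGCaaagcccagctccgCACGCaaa
CYP1B1 distal site: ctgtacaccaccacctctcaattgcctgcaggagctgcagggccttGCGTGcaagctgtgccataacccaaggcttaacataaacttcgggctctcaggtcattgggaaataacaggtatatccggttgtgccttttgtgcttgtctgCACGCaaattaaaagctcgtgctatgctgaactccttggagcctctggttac
CYP1A1 promoter: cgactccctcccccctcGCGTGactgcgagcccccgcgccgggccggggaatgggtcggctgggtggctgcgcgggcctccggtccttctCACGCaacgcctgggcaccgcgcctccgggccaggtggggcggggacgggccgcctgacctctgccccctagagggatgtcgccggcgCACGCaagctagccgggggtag
AHRR intron 3: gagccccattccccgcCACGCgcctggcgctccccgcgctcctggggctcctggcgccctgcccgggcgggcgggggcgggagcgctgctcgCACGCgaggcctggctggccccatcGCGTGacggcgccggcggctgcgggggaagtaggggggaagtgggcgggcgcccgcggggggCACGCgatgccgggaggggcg
AHRR intron 4, first site: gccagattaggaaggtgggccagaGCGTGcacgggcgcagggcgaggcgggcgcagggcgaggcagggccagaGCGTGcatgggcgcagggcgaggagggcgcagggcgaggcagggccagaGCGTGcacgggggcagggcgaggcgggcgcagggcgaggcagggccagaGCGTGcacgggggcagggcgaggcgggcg
AHRR intron 4, second site: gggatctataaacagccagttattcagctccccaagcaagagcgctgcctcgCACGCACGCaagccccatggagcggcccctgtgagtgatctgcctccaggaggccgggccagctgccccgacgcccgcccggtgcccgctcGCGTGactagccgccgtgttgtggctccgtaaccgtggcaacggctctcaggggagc
TIPARP promoter: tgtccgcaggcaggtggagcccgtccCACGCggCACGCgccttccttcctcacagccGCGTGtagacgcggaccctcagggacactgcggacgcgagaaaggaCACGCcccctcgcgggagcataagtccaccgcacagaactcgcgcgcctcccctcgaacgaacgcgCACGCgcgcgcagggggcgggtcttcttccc

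In these windows every capital run is the G form, GCGTG or CACGC, and ACGTG is absent from all 7. The choice of windows favours this, because TNGCGTG contains GCGTG. Outside the windows the shared stretches do hold ACGTG in places. These are the CYP1A1 promoter (-1434 and -46 bp from the start), the CYP1B1 distal site (-20632 and -19969 bp) and the second AHRR site in intron 4 (78840 bp). The CYP1B1 promoter window at chr2:38304123-38304322 lies at -1029 to -830 bp from the transcription start and holds 5 matches to GCGTG, of which 3 extend to TNGCGTG. The CYP1A1 window at chr15:75018746-75018945 lies at -1076 to -877 bp from that gene's start and holds 3 matches, all of which extend to TNGCGTG. The CYP1B1 distal window at chr2:38323451-38323650 holds 2 matches and both extend, whereas the TIPARP window at chr3:156392068-156392267 holds 5 and none does. In AHRR, the window in intron 3 at chr5:373895-374094 holds 4 matches, 3 of them extended, and the second window in intron 4 at chr5:400031-400230 holds 3, 2 of them extended. The first AHRR window in intron 4, at chr5:391408-391607, holds 4 matches with no extension, spaced evenly along the line.

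CYP1B1 was the gene with the most widespread HIF-1β signal. CYP1B1 (ENSG00000138061, chr2:38294116-38337044, minus strand) encodes a cytochrome P450 that hydroxylates oestradiol and activates polycyclic hydrocarbons, and its main transcript starts at 38303293. Each of the 8 libraries had a peak just upstream of this start, and the stretch common to all 8 ran from 38303729 to 38304674, which is 946 bp long and lies 436 to 1381 bp upstream. The peak centres lay between 621 and 960 bp upstream, and 3 of the 8 peaks reached over the start itself. The stretch also lies within the span of the antisense gene CYP1B1-AS1, and RMDN2 was the only other protein-coding gene within 25 kb. A site of both replicates in each of the 4 lines was present at 496 genes, or 2.46% of all genes, and CYP1B1 was the only one of the 7 AHR target genes among them.

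The rank of the CYP1B1 promoter peak differed widely between the lines. In T47D the scores were 1054.14 and 732.05 in replicates 1 and 2, and only 1.37% and 3.44% of the peaks of those libraries scored higher. In HCT-116 the scores were 166.22 and 133.43 in replicates 2 and 3, with 26.3% and 32.6% of peaks above. The A549 scores of 86.87 and 106.68 in replicates 2 and 3 left 53.1% and 44.1% of peaks above. In PC-3 the scores were 63.2 and 53.69 in replicates 1 and 2, close to the lowest score in the lists, with 74.8% and 91.8% of peaks above. Thus the lines stood in the order T47D, HCT-116, A549, PC-3, and no pair of replicates overlapped with the pair of another line.

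**Figure D1:**
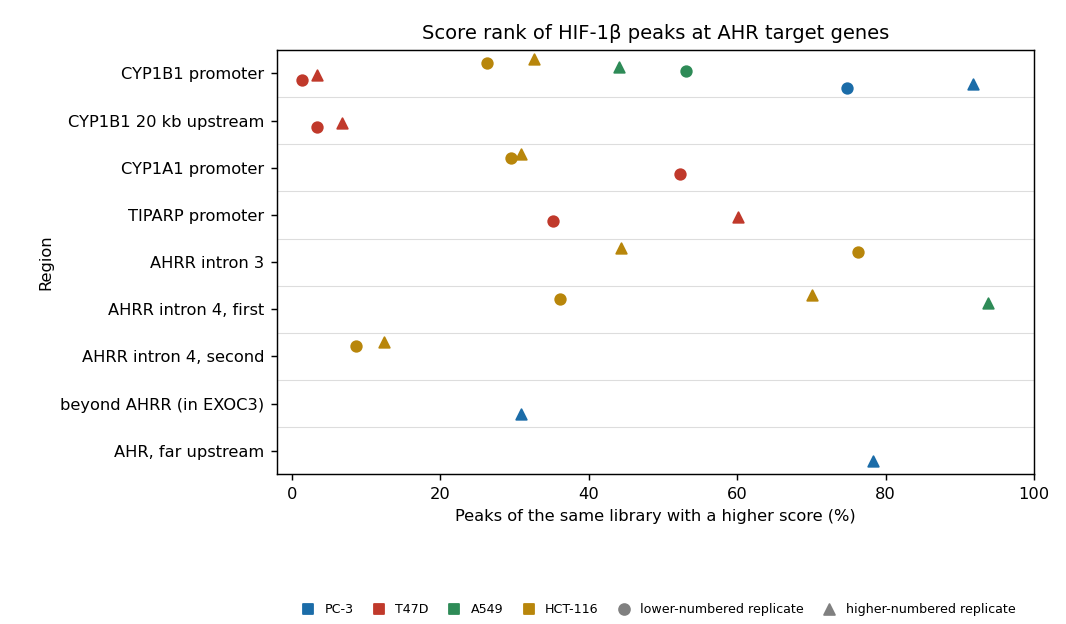
Score rank of each HIF-1β peak at the AHR target genes, by region. The x axis is the percentage of peaks of the same library that scored higher, colours are cell lines, and circles and triangles are the lower-numbered and higher-numbered replicates. The CYP1B1 promoter row holds all 8 libraries, with T47D at 1.37% and 3.44% at the left and PC-3 at 74.8% and 91.8% at the right, and the other rows hold 1 to 3.

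Replicates of a line were closer to each other in this rank than libraries at large. The mean difference within lines was 8.61 percentage points, against 38.6 over all 105 ways to pair the 8 libraries, with an exact one-sided permutation p of 0.00952, which is the smallest that 105 pairings can give. CYP1B1 was the only gene that had a peak in every library, so 1 such test was made and no adjustment was needed. The separation of PC-3, A549 and HCT-116 from each other rested on expressing rank as a percentage. Counted as a number of peaks, 996 and 624 peaks scored higher in HCT-116, 939 and 560 in A549 and 779 and 2653 in PC-3, which overlap, and only T47D, with 42 and 100, stood apart. On that scale the same exact permutation test gave p = 0.143, and ranked by peak width in place of score it gave p = 0.0857.

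The promoter was also ranked against the sites of the same line. Of the 2062 sites of T47D, 71 (3.44%) ranked above the CYP1B1 promoter by the mean of both replicates, compared with 705 of 1756 (40.1%) in HCT-116, 661 of 1041 (63.5%) in A549 and 950 of 970 (97.9%) in PC-3. Among the 232 regions with a site in all 4 lines, 52 ranked above it in T47D, 178 in A549, 211 in HCT-116 and 229 in PC-3, so that HCT-116 and A549 changed places. In 3 of the lines it was therefore one of the lower-ranking of the common regions. The difference between lines was a difference in score rank and not in presence.

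T47D had a second CYP1B1 site, at chr2:38322870-38324192, with its centre at -20238 bp from the main start. Its scores were 564.21 and 416.08 in replicates 1 and 2, with 3.40% and 6.80% of peaks above. The peaks of both replicates overlapped over 98.0% and 94.8% of their lengths. This DNA lies within the span of the longest annotated CYP1B1 transcript, which starts at 38337044, and within CYP1B1-AS1. In the other 6 libraries no peak was listed here, and the nearest one was the promoter peak, 18077 to 18263 bp away. At least 2 sites within 25 kb of a gene were found for 460 genes in T47D, or 2.28%.

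**Figure D2:**
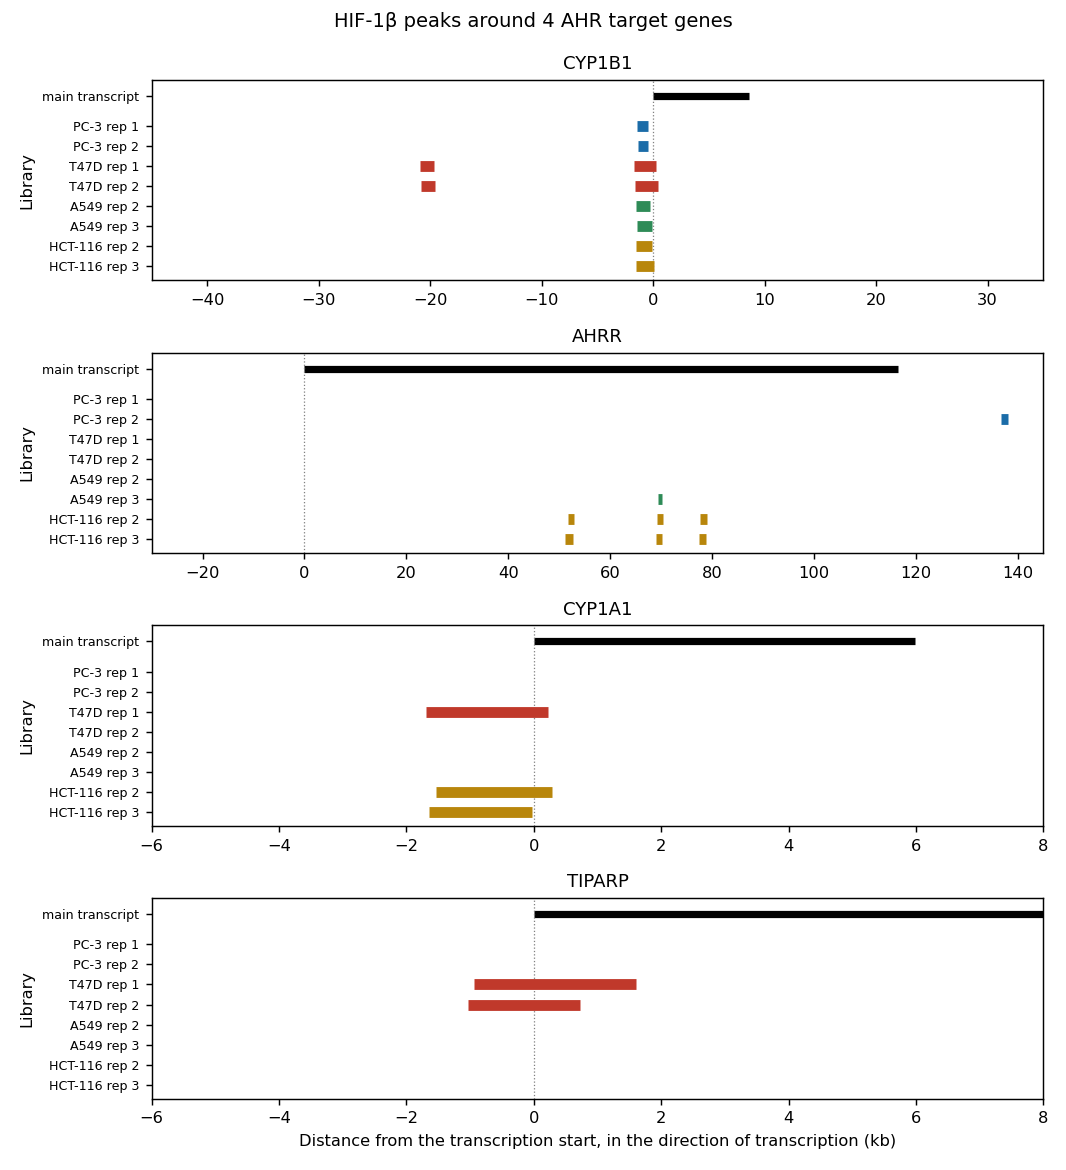
Intervals of HIF-1β peaks around CYP1B1, AHRR, CYP1A1 and TIPARP in each library. The x axis is the distance from the start of the main transcript in kb, positive in the direction of transcription, black bars are the main transcripts (cut at the edge of the panel for TIPARP) and coloured bars are peaks. CYP1B1 has promoter peaks in 8 libraries and distal peaks in both T47D replicates, and AHRR has 3 intronic peaks in both HCT-116 replicates.

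CYP1A1 (ENSG00000140465, chr15:75011883-75017877, minus strand), the gene most often used as a readout of AHR activity, had a promoter site in HCT-116. It ran from 75017581 to 75019520 and scored 152.12 and 139.27 in replicates 2 and 3, with 29.5% and 30.8% of peaks above. The scores of the replicates differed by 1.09 times, the least of the AHR target sites, and the peaks overlapped over 82.9% and 93.1% of their lengths. In T47D, replicate 1 had a peak over the same DNA, 75017652 to 75019561, where 80.61 was the score and 52.3% of peaks ranked above, but replicate 2 listed none within 82386 bp, so it was not counted as a site. PC-3 and A549 had no peak here, and the nearest sites lay 103074 and 103382 bp from the gene.

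CYP1A2 (ENSG00000140505, chr15:75041186-75048948, plus strand) encodes the related enzyme that metabolises caffeine in liver, and it lies head to head with CYP1A1. It had no peak of its own. The CYP1A1 promoter site was 21666 bp from its start and therefore fell within the 25 kb window, and the T47D replicate 1 peak did so too. Both genes are thus counted on the strength of 1 region.

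AHRR, the AHR repressor, which competes with AHR for HIF-1β, carried 3 sites in HCT-116. The gene (ENSG00000063438, chr5:321829-438406, plus strand) had sites in intron 3 at 373024-374686 and in intron 4 at 390854-392113 and 399264-400822, whose centres lie 52026, 69654 and 78214 bp downstream of the start. The intron 3 site scored 65.29 and 103.05 in replicates 2 and 3, with 76.2% and 44.3% of peaks above. The first intron 4 site scored 127.99 and 68.47, with 36.2% and 70.1% of peaks above. The second intron 4 site scored 417.19 and 299.99, with 8.60% and 12.4% of peaks above. It was the highest ranking AHRR site in both replicates, whereas the order of the other 2 differed between replicates. At least 3 sites within 25 kb were found for 55 genes in HCT-116, or 0.273%. The gene is longer than most and its window of 166578 bp compares with a median of 77219 bp over all genes.

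Outside HCT-116, AHRR had peaks in single replicates only. A549 replicate 3 had a peak at 391170-391986, over the first intron 4 site, with a score of 52.62 and 93.8% of peaks above, and A549 replicate 2 had none within 1162946 bp of that site. PC-3 replicate 2 had a peak at 458463-459814, inside the neighbouring gene EXOC3, with a score of 129.76 and 30.8% of peaks above. Neither T47D replicate had a peak in the window. All 3 HCT-116 sites also lie in the readthrough gene PDCD6-AHRR.

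The first intron 4 site of AHRR has a repeated sequence. In the 1046 bp covered by both HCT-116 replicates there were 13 matches to GCGTG, and 11 of the 12 distances between neighbouring matches were exactly 49 bp. How the repeat affects the alignment of reads here was not tested. The other 2 AHRR sites held 6 and 4 matches in their shared stretches.

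TIPARP (ENSG00000163659, chr3:156391024-156424559, plus strand), whose product adds ADP-ribose to AHR and limits its activity, had a site in T47D. It ran from 156391350 to 156393988 and both peaks covered the start of the main transcript at 156392379. The scores were 107.73 and 76.27 in replicates 1 and 2, with 35.1% and 60.1% of peaks above. The replicates overlapped over 65.1% and 94.9% of their lengths, the peak of replicate 1 being the longer. The site also overlaps the antisense gene TIPARP-AS1. In the other 6 libraries the nearest peak lay 66855 to 141128 bp away.

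AHR and NQO1 had no site in any line. AHR (ENSG00000106546, chr7:16955983-17385776, plus strand) has an annotated body that extends far upstream of the main transcript, so that its window is 479794 bp long. Only PC-3 replicate 2 had a peak in it, at 17134315-17135285, with a score of 61.04 and 78.3% of peaks above, and its centre was at -203476 bp from the main start at 17338276. NQO1 (ENSG00000181019, chr16:69740899-69760571, minus strand), a quinone reductase that responds to both AHR and NRF2, had no listed peak in its window in any of the 8 libraries. The nearest site was 295749 bp away in HCT-116 and 387034 bp away in T47D, and 2535863 and 2535924 bp away in PC-3 and A549. Since the lists begin at a score close to 50, weaker signal at either gene would not be listed. A gene with no site in any line was the usual case, with 15237 genes or 75.6% of all genes.

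Counted by line, HCT-116 had a site at 4 of the 7 genes (57.1%), which were AHRR, CYP1A1, CYP1A2 and CYP1B1, against 14.2% of all genes. T47D had a site at 2 (28.6%), CYP1B1 and TIPARP, against 16.0% of all genes. PC-3 and A549 had a site at CYP1B1 alone, 14.3% of the 7 genes, against 7.07% and 6.01% of all genes. With 7 genes, 1 gene is worth 14.3 percentage points, and no test was made on these counts. The HCT-116 count came from 5 sites in 3 neighbourhoods, since CYP1A1 and CYP1A2 share a site.

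Replicates differed in how many of the genes had a peak. The counts were 1 and 3 in PC-3 replicates 1 and 2, where 7.45% and 17.2% of all genes had a peak. They were 4 and 2 in T47D replicates 1 and 2, against 22.4% and 21.4% of all genes. In A549 replicates 2 and 3 they were 1 and 2, against 9.29% and 7.14%. Both HCT-116 replicates had 4, against 28.3% and 15.2%, and the 4 genes were identical although the lists held 3790 and 1913 peaks. The mean difference within lines was 1.25 genes, against 1.54 over all 105 pairings, with an exact one-sided permutation p of 0.486, so the number of genes with a peak did not separate the lines beyond the spread between replicates.

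**Figure D3:**
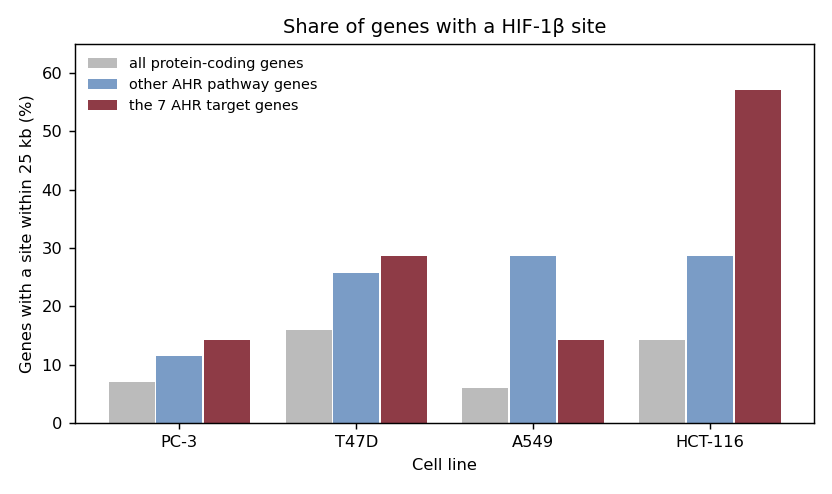
Percentage of genes with a HIF-1β site of both replicates within 25 kb, by cell line. Grey bars are all 20163 protein-coding genes, blue bars are 35 other genes of the AHR pathway and red bars are the 7 AHR target genes, and 1 of 7 genes is 14.3%. The red bar is highest in HCT-116, at 57.1%, where 4 genes had a site.

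The core motifs of the sites were counted next, on both strands and with overlapping matches included, so that CACGTG gives a match to ACGTG on each strand and every TNGCGTG is also counted as GCGTG. There were 10 sites in 7 separate regions, since the CYP1B1 promoter site recurs in each of the 4 lines with the same DNA. GCGTG was found in all 10, against 72.5% to 90.0% of all sites of a line, and its number per kb was above the median of the line's sites in all 10. ACGTG was found in 6 of the 10, against 83.8% to 90.3% of all sites, and its number per kb was below the line's median in 8. The longer form TNGCGTG was found in 9 of the 10, against 24.2% to 34.9% of all sites. By region rather than by site, the stretches shared between replicates held ACGTG in 3 of 7, GCGTG in 7 and TNGCGTG in 5.

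In the central 300 bp the contrast in ACGTG was wider. None of the 10 AHR target sites had ACGTG there, whereas it was present in 68.8% of all sites in PC-3, 50.5% in T47D, 65.1% in A549 and 57.7% in HCT-116. GCGTG was in the central part of 7 of the 10, against 42.7% to 57.6% of all sites, and TNGCGTG in 6, against 6.70% to 10.6%. The 10 sites lie in 7 regions, so these counts take the CYP1B1 promoter once for every line. Its central part held 3 matches to TNGCGTG in PC-3, 2 in A549, 2 in HCT-116 and 0 in T47D. Of 35116 RefSeq promoters of 300 bases, on GRCh38.p14, 21.4% held ACGTG, 36.5% GCGTG and 5.51% TNGCGTG. The lists give no summit, so the middle of each merged interval was used, and at the T47D CYP1B1 promoter, HCT-116 CYP1A1 and T47D TIPARP sites the matches to TNGCGTG lay outside it.

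Single sites stood high in the density of TNGCGTG. The CYP1B1 promoter site held 3 matches in PC-3 and 4 in each of the other lines, and 0.206% of the sites of PC-3, 0.824% of T47D, 0.192% of A549 and 0.342% of HCT-116 had as many per kb. The CYP1A1 site held 5, and 0.228% of HCT-116 sites were as dense. The intron 3 site of AHRR held 3 (1.08% as dense) and the second intron 4 site 2 (4.44%), while the repeat-bearing first intron 4 site held none. That site instead had 15 matches to GCGTG, or 11.9 per kb, and 0.285% of HCT-116 sites were as dense in GCGTG. The distal CYP1B1 site held 2 matches to TNGCGTG (1.99% of T47D sites as dense) and the TIPARP site 1 (29.7%). These values describe the letters of the sites. Which dimer occupied them was not measured.

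**Figure D4:**
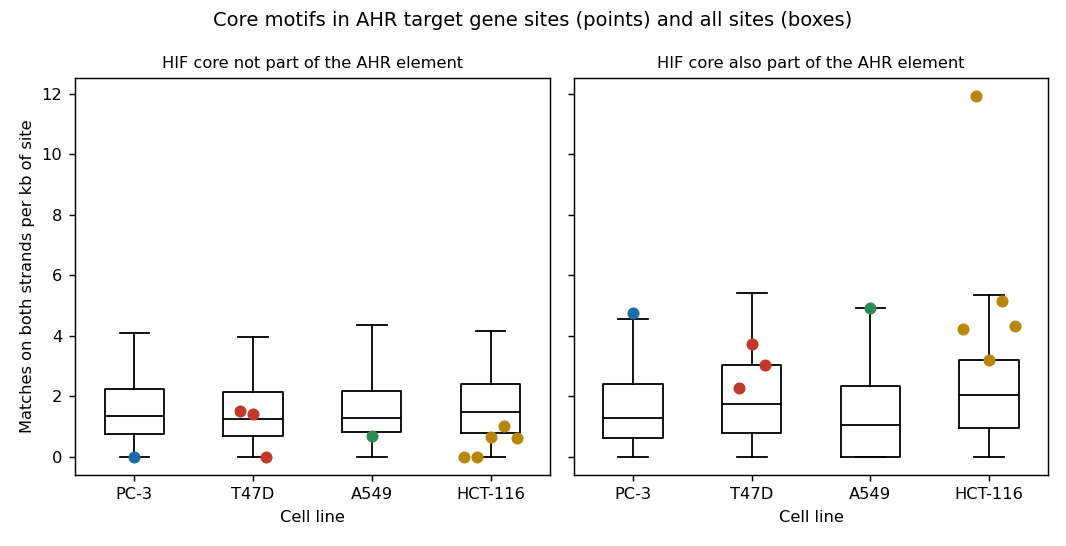
Matches per kb of site to the HIF core that is not part of the AHR element (ACGTG, left) and to the one that is (GCGTG, right), on both strands. Points are the 10 AHR target sites, and boxes are all sites of the line with the median, the quartiles and whiskers at the 5th and 95th percentiles. In the right panel all points lie above the median, with the AHRR repeat at 11.9, and in the left panel 8 lie below it.

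As a comparison, the same count was made at genes of oxygen sensing, a list of HIF hydroxylases and regulators that holds EGLN1, EGLN2, EGLN3, HIF1AN, VHL and CITED2. Their 19 sites also recur between lines. In the central 300 bp they had ACGTG in 15 (78.9%), GCGTG in 10 (52.6%) and TNGCGTG in 4 (21.1%). Over the whole site GCGTG was in 17 of these 19 (89.5%), against 10 of 10 at the AHR target genes. TNGCGTG was in 12 of the 19 whole sites (63.2%), against 9 of 10 at the AHR target genes. EGLN3, a prolyl hydroxylase that marks HIF-α for breakdown, had sites in all 4 lines, with scores of 3100 and 2207 at its best site in HCT-116. It had 2 sites in PC-3, 2 in T47D, 4 in A549 and 3 in HCT-116, and so gave most of the 19. EGLN2 and VHL had no site. EGLN1 also had a site in each line, CITED2 in T47D, A549 and HCT-116, and HIF1AN in HCT-116. At the AHR target genes the highest scores were those of the CYP1B1 promoter in T47D.

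RefSeq promoter sequences, which run from 250 bases before to 50 after the start, were found for 6 of the 7 genes, and none was matched for CYP1B1. The promoter of AHR, which had no peak, held 2 matches to ACGTG and 1 to GCGTG. The promoter of NQO1, also without a peak, held 1 match to GCGTG, which extended to TNGCGTG. The CYP1A2 promoter held none of the 3 motifs, and the CYP1A1 promoter held 1 match each to ACGTG and GCGTG. For AHRR, promoter 1 held 1 match to GCGTG, which extended to TNGCGTG, and promoter 2 held 2 that did not. For TIPARP, promoter 1 held 2 matches to GCGTG without extension, and promoters 2 and 3 held none of the motifs.

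Other genes of the AHR pathway gave the setting for the 7. The lists held 35 genes, all of them annotated, and a site was present at 4 in PC-3 (11.4%, against 7.07% of all genes), 9 in T47D (25.7%, against 16.0%), 10 in A549 (28.6%, against 6.01%) and 10 in HCT-116 (28.6%, against 14.2%). These genes were chosen with earlier results known, and no test was made on the counts. Among the 6 genes of the AHR complex, ARNT itself had no site in any line. PTGES3, the p23 cochaperone of AHR, had a promoter site in T47D, A549 and HCT-116, with scores of 296.72 and 206.84 in HCT-116. HSP90AB1, which encodes a chaperone of AHR, had a site in T47D and HCT-116.

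Of 11 other bHLH-PAS genes, HIF1A had a site in all 4 lines, centred 55184 to 55821 bp downstream of its start, with scores from 1430.5 to 3100. NPAS2 had a site in PC-3 and A549 at different positions, centred at -1283 and 73922 bp from its main start. EPAS1, which encodes HIF-2α, had one in T47D with scores of 59.67 and 61.09, centred at 111730 bp from its main start. In the list of 13 other AHR-responsive genes, A549 had a site at 7 (53.8%, against 6.01% of all genes), which were UGT1A6, NFE2L2, CYP2S1, SLC7A5, NEDD9, HES1 and PTGS2. HCT-116 had 5 (38.5%, against 14.2%), namely NFE2L2, CYP2S1, SLC7A5, EREG and HES1. T47D had 3 (23.1%, against 16.0%), NFE2L2, SLC7A5 and HES1, and PC-3 had 2 (15.4%, against 7.07%), SLC7A5 and HES1. Several of these sites lay far from the main start of the gene. In A549 the best-scoring site was centred at -160618 bp for NEDD9, 32730 bp for CYP2S1, 15534 bp for SLC7A5 and 7394 bp for UGT1A6. It was at 1174 bp for NFE2L2, -1089 bp for HES1 and 42 bp for PTGS2. In the central 300 bp, the 20 sites of this list had ACGTG in 11 (55%), GCGTG in 15 (75%) and TNGCGTG in 4 (20%). Over the whole site ACGTG was in 17 (85%), GCGTG in 19 (95%) and TNGCGTG in 8 (40%). Of the 36 sites of all the pathway lists together, 25 (69.4%) had central GCGTG, 20 (55.6%) central ACGTG and 4 (11.1%) central TNGCGTG. Over the whole site, 11 (30.6%) had TNGCGTG. The share with central GCGTG at the AHR target genes, 70%, was thus close to that of these lists. The other shares at the AHR target genes differed, at 0% for central ACGTG, 60% for central TNGCGTG and 90% for TNGCGTG over the whole site. Of 5 genes of tryptophan breakdown, which yields AHR ligands, IL4I1 had a site in T47D and HCT-116 and the others had none. That was 20% of the list, against 16.0% of all genes in T47D and 14.2% in HCT-116. The IL4I1 site was centred at 19652 bp from the main start in T47D and 19581 bp in HCT-116.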

How the data were processed

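HIF-1β ChIP-seq was available as 1 peak list per library. The deposited files hold each peak's interval, name and a score. The authors trimmed and aligned reads to GRCh37 (hg19) and called peaks with MACS. The submitters' processing notes name Trim Galore 0.3.3, BWA 0.7.5a-r405, SAMtools 0.1.19, bedtools 2.17.0 and Picard 1.106. The score has no header and the lists hold no reads, so depth is unknown and scores were compared as ranks within a library. The paper names T-PIC as a further caller and kept peaks that both callers found. The peak numbers in the deposited names run without gaps in every list. Whether T-PIC was applied to these lists was not tested.

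Overlaps of at least 1 bp were counted with Python 3.11.15, NumPy 2.4.6 and SciPy 1.17.1, against GENCODE release 44 lifted to GRCh37. Transcription starts are those of the main (MANE Select) transcript. Overlap counting and the pairing test were tested on simulated data. The text names the 7 genes and every listed pathway gene with a site, except 1 that is not reported here. The members and lists were chosen with earlier results of these data known. Alternatives were windows, site rules, score limits, single replicates and motif windows.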

Additional observations from a re-analysis of the deposited data

How the results depend on the processing

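Of 76 alternatives, 59 kept the value within the limits set and 17 did not. No paired analysis was possible because the results are overlap counts and ranks from no fitted model, and the replicates share only a number. Counting a peak of either replicate raised the AHR target genes with a peak to 3 in PC-3, 4 in T47D and 2 in A549, and the pathway genes in PC-3 to 13, while the share of all genes rose to 17.5%, 27.2% and 10.3% in those lines. With the higher-scoring 50% of each list, the AHR target genes with a site were 0 in PC-3, 1 in T47D and 0 in A549, and the pathway genes 1 in PC-3 and 3 in HCT-116, with shares of all genes of 3.76%, 8.83%, 3.45% and 7.80% in PC-3, T47D, A549 and HCT-116. With 1 replicate left out, the AHR target genes ranged from 1 to 3 in PC-3, 2 to 4 in T47D and 1 to 2 in A549, and the pathway genes in PC-3 from 4 to 13. The higher values were those without PC-3 replicate 1, T47D replicate 2 and A549 replicate 2, where 17.2%, 22.4% and 7.14% of all genes had a peak. Within 2 kb of any transcription start, HCT-116 had 2 AHR target genes, against 6.84% of all genes. Ranked by width, the mean difference within lines for CYP1B1 was 17.7 percentage points (exact permutation p = 0.0857), and ranked as a number of peaks, 671 peaks (exact permutation p = 0.143). ACGTG was in 6 of 10 whole sites and 0 central windows of 300 bp. Ranking by number and using the main transcript in place of the whole gene were chosen after seeing the data. The cause of these changes was not tested. The lists hold no reads, so signal under their lowest score is not seen.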
